A study of Arabidopsis thaliana with 12 samples.

Results

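The zinc-type members of the Arabidopsis ZIP transporter family and IRT3 are described here in iron-deficient and iron-replete plants. They comprise 10 genes of the 33607 in the deposited tables, chosen by name: IRT3 (AT1G60960), ZIP1 (AT3G12750), ZIP2 (AT5G59520), ZIP3 (AT2G32270), ZIP4 (AT1G10970), ZIP5 (AT1G05300), ZIP6 (AT2G30080), ZIP7 (AT2G04032), ZIP9 (AT4G33020) and ZIP11 (AT1G55910). The plants were wild-type Arabidopsis thaliana of accession Columbia-0, grown in vitro in square Petri dishes of Estelle and Somerville (ES) medium with 1.5% sucrose under continuous light, 25 seedlings to a dish. After 10 days, seedlings were moved for 72 h to ES medium without iron, to which FerroZine, a compound that binds ferrous iron, was added at 100 µM, or to complete ES medium. Polyadenylated RNA of whole rosettes and of roots was sequenced from Fe-deficient rosettes, control rosettes, Fe-deficient roots and control roots, with 3 libraries in each of the 4 groups. Iron removal and FerroZine were applied together, so their effects cannot be told apart. The labels do not say whether replicates came from separate plates, so the p-values measure only the spread between these libraries, which may be technical.

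ZIP proteins carry divalent metals such as zinc, iron and manganese into the cytosol, from outside the cell or from an organelle. In Arabidopsis, IRT1 is the main iron uptake carrier of the root epidermis and also moves zinc, whereas most proteins named ZIP are linked to zinc or manganese. Several of their genes are switched on in zinc-starved plants by the transcription factors bZIP19 and bZIP23, which bind a short palindromic promoter element called the zinc deficiency response element.

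The core of that element is printed here in capitals, because 2 of the 10 genes carried an exact copy close to their start. The strand shown is that of the gene, and coordinates are those of the TAIR10.1 assembly, from which the letters were read with the RefSeq annotation. IRT3 lies on the minus strand at chr1:22445299-22447299 and ZIP4 on the minus strand at chr1:3665087-3667139. The IRT3 site at chr1:22447300-22447339 begins its core 24 bases before the annotated gene start, and the ZIP4 site at chr1:3667155-3667194 begins it 39 bases before. ZIP10 at chr1:11177455-11177494 (minus strand) and ZIP12 at chr5:24959925-24959964 (plus strand), relatives outside the 10, are shown for comparison.
IRT3: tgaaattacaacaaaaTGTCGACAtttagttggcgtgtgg
ZIP4: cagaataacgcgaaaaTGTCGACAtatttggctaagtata
ZIP10: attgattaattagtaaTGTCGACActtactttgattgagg
ZIP12: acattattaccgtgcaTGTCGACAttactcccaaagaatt

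The core TGTCGACA was found in 0.568% of 27443 protein-coding promoters, taken as 500 bases before to 50 bases after the gene start. Among the 10 genes only IRT3 and ZIP4 held it in that window. The G-box CACGTG, a common bHLH target, was in none of the 10 and in 10.5% of all promoters. The copper response core GTAC was in 7 of the 10, all but ZIP1, ZIP4 and ZIP5, against 60.4% of all promoters. Each of these motifs is its own reverse complement, so both strands were covered, and none contains another. A match is a string of letters and not a shown binding site.

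The encoded proteins, translated from the RefSeq coding sequences, ranged from 326 residues (ZIP11) to 425 (IRT3). IRT3 and ZIP4 were the closest pair, with 84.2% identity over the shorter protein. ZIP3 and ZIP5 followed with 78.8%, and ZIP9 was closest to ZIP4 with 65.0%. ZIP2 and ZIP11 shared 57.1% with each other, while their median identity to all other members, this pair included, was 26.3% and 27.6%. ZIP7 was the member nearest to IRT1, at 54.2%. ZIP proteins have a histidine-rich cytosolic loop, which was not located here. Over the whole protein, histidines were densest in IRT3, with up to 9 in any 20 residues. ZIP1 and ZIP4 were close to it with up to 8, while ZIP2, ZIP6 and ZIP7 had up to 2. ZIP3 alone shared stretches of at least 50 bases at 95% identity or more with other loci, 2 in all, and both lie in an intron of ZIP3 (one of them matches the pseudogene AT1G11150).

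Expression is given as the deposited values, read here as RPKM, a read density per kilobase of transcript scaled to the library. That unit was inferred from the values, which look equalised between libraries of an organ. The 2 organs were normalised in separate tables. Between 18879 and 18947 genes reached 1 RPKM in a rosette library and between 19790 and 19843 in a root library. Replicates correlated at 0.977 to 0.988 in rosettes and 0.979 to 0.986 in roots, across tested genes on the log2 scale. The 5 rosette markers (RCA, RBCS1A, CA1, LHCB1.1 and GAPA) summed to 14254 to 14840 RPKM in Fe-deficient rosettes and 13480 to 14885 RPKM in control rosettes. In roots they summed to 67.1 to 70.9 RPKM in Fe-deficient libraries and 85.3 to 104 RPKM in control libraries. The 6 root markers (PYK10, TIP2;3, CASP1, SCR, WER and COBL9) summed to 3111 to 3166 RPKM in Fe-deficient roots and 3125 to 3156 RPKM in control roots, against 122 to 158 RPKM in Fe-deficient rosettes and 137 to 159 RPKM in control rosettes. PYK10 was listed at the same 2926.32 RPKM in all 6 root libraries and RCA at the same 2616.5 RPKM in all 6 rosette libraries, so the root marker sums in roots mostly repeat that one listed value and do not compare the groups. SCR was nearly level between organs at 14.2 to 19.0 RPKM in all 12 libraries.

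In roots, 5 of the 9 members tested were called lower under iron deficiency, and ZIP9 was the one called higher. Genes averaging at least 1 RPKM over an organ's 6 libraries were tested with limma on log2(RPKM + 0.5), and a gene was called at a Benjamini-Hochberg adjusted p under 0.05 over all genes tested. Of the 9 members tested in roots, 5 fell (IRT3, ZIP2, ZIP3, ZIP4 and ZIP5), 1 rose (ZIP9) and 3 were not called (ZIP1, ZIP6 and ZIP11). Of all 19932 genes tested in roots, 2.35% were called lower, 3.52% higher and 5.87% in either direction. ZIP7 was below the level needed for a test. The median log2 fold change of the 9 was -0.64, beside -0.02 over all genes tested. Fewer cells of a type and less RNA per cell cannot be told apart in such bulk samples.

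ZIP2 encodes a plasma membrane carrier placed in the root stele, the central vascular cylinder. It lies on the minus strand at chr5:23991213-23992908. It had 2.06, 1.78 and 2.43 RPKM in Fe-deficient roots, against 11.41, 13.46 and 12.16 RPKM in control roots. All 3 Fe-deficient libraries lay far below the lowest control library, and the mean of controls was 5.91 times that of Fe-deficient roots. Its log2 fold change of -2.31 (SE 0.127, limma adjusted p 0.000111) was the most negative of the 10 genes. In Fe-deficient roots only ZIP7 was lower than ZIP2 among the 10, whereas in control roots only ZIP3 and IRT3 were higher, and the range of ZIP2 met that of no neighbour in either order.

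ZIP3, which restores zinc uptake when expressed in yeast, was the most abundant member in roots. It is encoded on the plus strand at chr2:13704068-13706928. It had 21.04, 24.27 and 22.41 RPKM in Fe-deficient roots, against 46.69, 44.42 and 46.65 RPKM in control roots. The groups did not overlap, and the Fe-deficient mean of 22.6 ± 1.62 RPKM was 0.492 of the control mean of 45.9 ± 1.30 RPKM (SD, n = 3 each). The log2 fold change was -1.01 (SE 0.0682, limma adjusted p 0.000304).

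IRT3, a plasma membrane carrier of zinc that can also move iron, followed it in level. Fe-deficient roots had 20.62, 22.07 and 20.72 RPKM and control roots 35.74, 40.69 and 38.68 RPKM. Every Fe-deficient library lay below every control library, and the log2 fold change was -0.84 (SE 0.0686, limma adjusted p 0.000765). Its level in Fe-deficient roots overlapped that of ZIP3, whereas in control roots ZIP3 was above it in every library.

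ZIP5, the nearest relative of ZIP3 among the proteins, lies on the minus strand at chr1:1544927-1547849. It had 3.58, 4.01 and 3.74 RPKM in Fe-deficient roots, against 7.38, 7.52 and 7.86 RPKM in control roots. The replicates were tight and the groups well apart, with a log2 fold change of -0.92 (SE 0.0911, limma adjusted p 0.00195). The log2 fold changes of this related pair, -1.01 for ZIP3 and -0.92 for ZIP5, thus lay within 0.1 of each other, at levels that differed several-fold. Other related pairs named above lay further apart in roots. These were IRT3 and ZIP4 (-0.84 and -0.64), ZIP9 and ZIP4 (2.06 and -0.64) and ZIP2 and ZIP11 (-2.31 and 0.05).

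ZIP4, the closest relative of IRT3, was called lower by a narrow margin. It had 7.42, 5.12 and 5.53 RPKM in Fe-deficient roots, against 9.16, 10.08 and 9.49 RPKM in control roots. The groups did not overlap, but Fe-deficient replicate 1 stood nearer to the controls than the other two. The log2 fold change was -0.64 (SE 0.140, limma adjusted p 0.0474). The call was lost in 9 of 15 alternatives. These were the fits without Fe-deficient replicate 2 (limma adjusted p 0.141) or 3 (0.131), without control replicate 1 (0.0894), 2 (0.163) or 3 (0.117), with a filter at 0.5 RPKM (0.0851) or none (0.151), without the trend (0.0600) and with a replicate block (0.0914). Without Fe-deficient replicate 1 the limma adjusted p was 0.0173 (2 against 3 libraries).

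ZIP9 moved the other way. It belongs to the genes induced by zinc starvation and lies on the minus strand at chr4:15932420-15934762. It had 4.84, 4.11 and 3.74 RPKM in Fe-deficient roots, against 0.91, 0.46 and 0.56 RPKM in control roots, so that the lowest Fe-deficient library was above the highest control. The mean was 6.58 times the control mean, and the log2 fold change was 2.06 (SE 0.189, limma adjusted p 0.00132). Because the control level is near the added 0.5 RPKM, the size depends on it: the log2 fold change was 2.58 with 0.1 RPKM added and 1.67 with 1 RPKM. All control libraries were under the mean of 1 RPKM needed, so ZIP9 entered the test only through its Fe-deficient libraries. In Fe-deficient roots the mean of ZIP9 was above those of ZIP5, ZIP2 and ZIP7, with a range that met that of ZIP5, whereas in control roots it was above ZIP7 only.

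**Figure D1:**
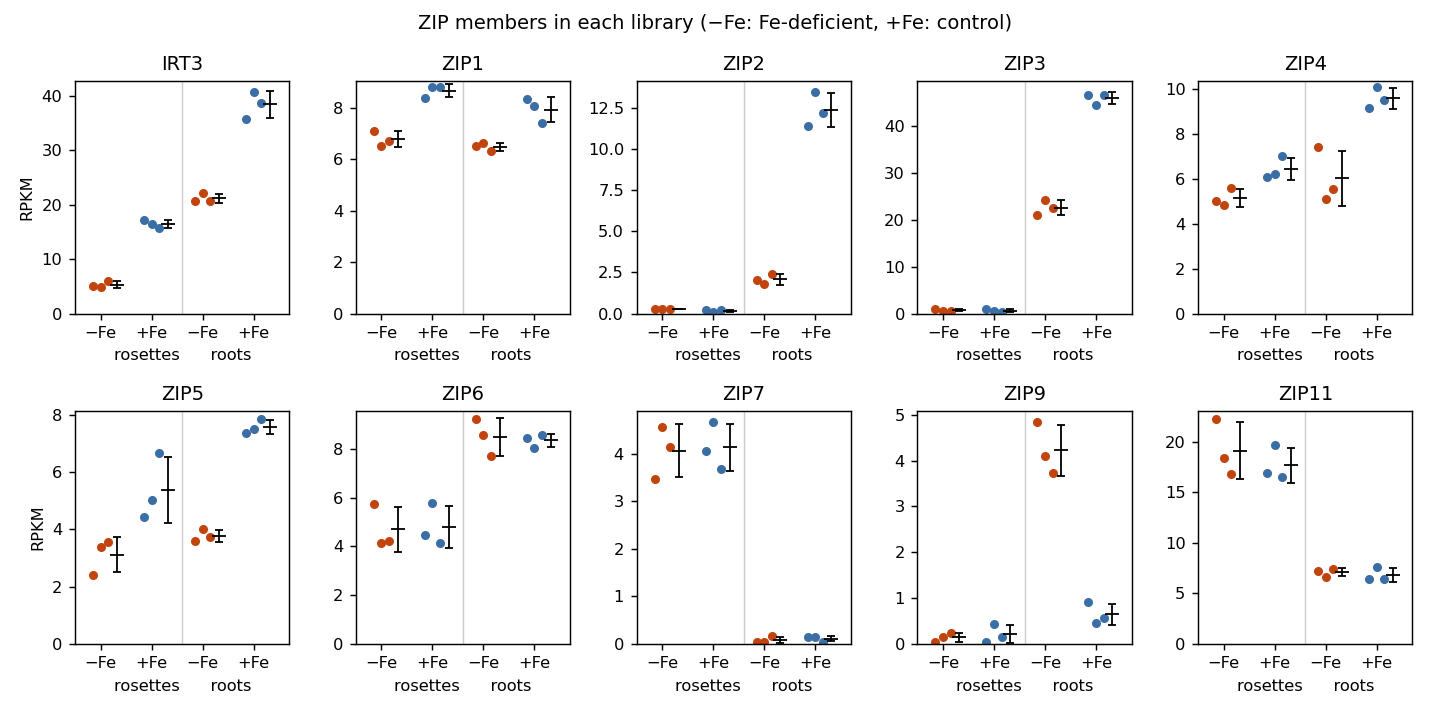
RPKM (vertical axes, linear from 0, scaled per gene) of the 10 genes in each library, with Fe-deficient (−Fe) left of control (+Fe) in rosettes and then in roots. Points are libraries and the black marks are the mean and SD of 3; ZIP2, ZIP3, IRT3 and ZIP5 lie lower and ZIP9 higher in Fe-deficient roots, and the organs were normalised separately.

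The remaining members were steadier in roots. ZIP1, a vacuolar membrane carrier, had 6.50, 6.62 and 6.30 RPKM in Fe-deficient roots, against 8.32, 8.06 and 7.40 RPKM in control roots. These groups did not overlap, as was the case for 26.1% of all genes tested in roots, and the log2 fold change of -0.27 (95% interval -0.47 to -0.07, limma adjusted p 0.125) was not called. ZIP6 averaged 8.50 ± 0.771 RPKM in Fe-deficient roots and 8.35 ± 0.278 RPKM in control roots (SD, n = 3 each), with a log2 fold change between -0.20 and 0.24 at 95%. ZIP11 averaged 7.07 ± 0.397 and 6.80 ± 0.667 RPKM in the same order (SD, n = 3 each), with an interval of -0.18 to 0.29. For both genes the libraries of the 2 groups overlapped. ZIP7 was listed at 0.04 to 0.16 RPKM in all 6 root libraries, where the value listed for a gene of its length without reads is about 0.04.

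The genes of 2 neighbours overlap members on the opposite strand, and whether the authors counted by strand is not given in the sources used here. ALIS1 (AT3G12740) covers 125 bases of ZIP1 and stood at 50.6 ± 1.29 RPKM in Fe-deficient roots and 49.6 ± 1.07 RPKM in control roots (SD, n = 3 each). KT1 (AT2G30070) covers 36 bases of ZIP6 and stood at 9.24 ± 0.592 and 8.74 ± 0.905 RPKM in the same order (SD, n = 3 each). The other 8 members overlap no annotated gene.

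The summed level of the rosette markers in roots, given above, was lower in Fe-deficient than in control libraries without overlap. ZIP2 and ZIP3 stood below 1 RPKM in every rosette library, and ZIP5 had fewer RPKM in control rosettes than in control roots on average. IRT3 and ZIP4 were also lower in control rosettes than in control roots. These levels come from separately normalised tables, and the part of shoot transcripts in the root values was not tested.

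In rosettes, IRT3 was the one member whose change passed the test. It had 5, 4.91 and 6.04 RPKM in Fe-deficient rosettes, against 17.12, 16.42 and 15.74 RPKM in control rosettes. The groups were far apart, the control mean was 3.09 times the Fe-deficient mean, and the log2 fold change was -1.55 (SE 0.0930, limma adjusted p 0.000727). Of the 7 members tested in rosettes, 1 was called, and over all 19006 genes tested there 1.96% were called, 1.28% lower. The median log2 fold change of the 7 was -0.30, beside 0.00 over all genes tested.

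A further 3 members had lower values in Fe-deficient rosettes without passing the test. ZIP5 had 2.41, 3.37 and 3.55 RPKM in Fe-deficient rosettes, against 4.44, 5.03 and 6.66 RPKM in control rosettes, with a log2 fold change of -0.70 (95% interval -1.16 to -0.24, limma adjusted p 0.157). ZIP1 had 7.11, 6.53 and 6.70 RPKM in Fe-deficient rosettes and 8.39, 8.79 and 8.82 RPKM in control rosettes, with -0.33 (-0.49 to -0.17, limma adjusted p 0.0772). ZIP4 had 5.01, 4.82 and 5.60 RPKM in Fe-deficient rosettes and 6.09, 6.21 and 7.01 RPKM in control rosettes, with -0.30 (-0.52 to -0.07, limma adjusted p 0.201). For these 3 genes, as for IRT3, the groups did not overlap, which held for 21.4% of all genes tested in rosettes.

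ZIP11, ZIP6 and ZIP7 showed overlapping groups in rosettes. ZIP11, the most abundant member there, had 22.22, 18.38 and 16.78 RPKM in Fe-deficient rosettes and 16.94, 19.67 and 16.47 RPKM in control rosettes, with an interval of -0.19 to 0.40 for its log2 fold change. ZIP6 had means of 4.70 ± 0.913 RPKM in Fe-deficient rosettes and 4.79 ± 0.879 RPKM in control rosettes (SD, n = 3 each), and its interval was -0.44 to 0.39. ZIP7 had 4.06 ± 0.560 and 4.13 ± 0.499 RPKM in the same order (SD, n = 3 each), with -0.34 to 0.30.

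ZIP2, ZIP3 and ZIP9 were too low in rosettes to be tested. ZIP2 had 0.27, 0.28 and 0.30 RPKM in Fe-deficient rosettes, against 0.19, 0.11 and 0.19 RPKM in control rosettes. ZIP3 had 0.93, 0.57 and 0.64 RPKM in Fe-deficient rosettes, against 0.89, 0.57 and 0.28 RPKM in control rosettes. ZIP9 had 0.05, 0.14 and 0.23 RPKM in Fe-deficient rosettes, against 0.05, 0.43 and 0.14 RPKM in control rosettes. ZIP9, whose level in Fe-deficient roots was several RPKM, thus stayed at no more than 0.43 RPKM in any rosette library.

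**Figure D2:**
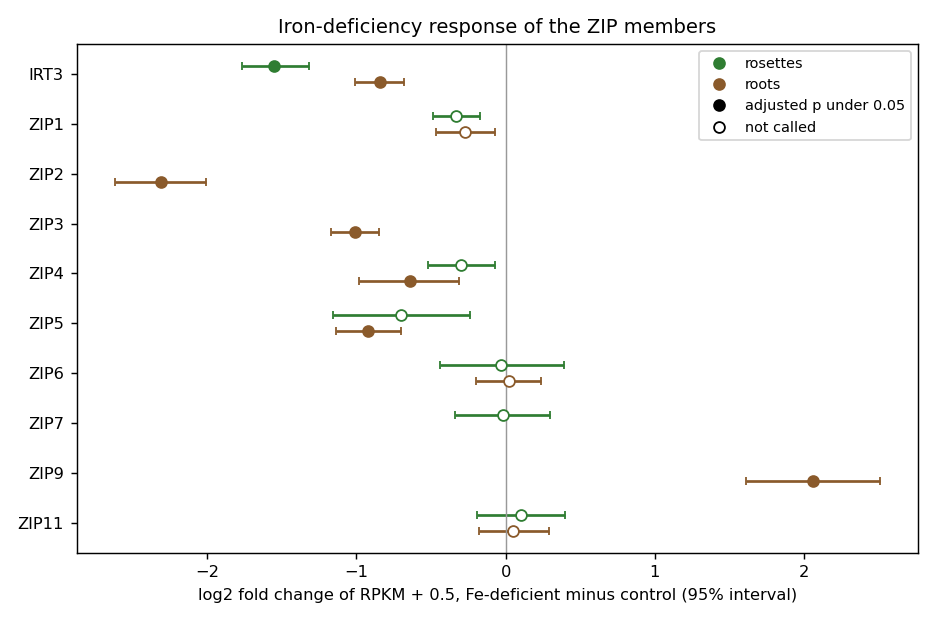
Log2 fold changes of RPKM + 0.5, Fe-deficient minus control, with 95% intervals, for members tested in rosettes (green, upper) and roots (brown, lower). Filled points were called at an adjusted p under 0.05: IRT3 in both organs, ZIP2, ZIP3, ZIP4 and ZIP5 lower in roots, and ZIP9 higher in roots.

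The response of IRT3 differed between organs. Its log2 fold change was -1.55 in rosettes and -0.84 in roots, a difference of -0.70 (95% interval -0.95 to -0.45), with an adjusted p of 0.00512 from the 2 limma fits. This was 1 call among the 6 members tested in both organs, and 3.48% of all 17680 genes tested in both were called. The differences of ZIP1, ZIP4, ZIP5, ZIP6 and ZIP11 were not called, with adjusted p of 0.340 to 0.941 by the same limma comparison. Their intervals were -0.29 to 0.17 for ZIP1, -0.02 to 0.71 for ZIP4, -0.26 to 0.70 for ZIP5, -0.49 to 0.39 for ZIP6 and -0.29 to 0.39 for ZIP11.

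The order of the levels also differed between the organs, as read from separately normalised tables and therefore without a test. In Fe-deficient rosettes ZIP11 led, above ZIP1, with IRT3, ZIP4, ZIP6, ZIP7 and ZIP5 following in ranges that met from one to the next, and ZIP3, ZIP2 and ZIP9 last. In control rosettes ZIP11 and IRT3 led with overlapping ranges, and the order below was ZIP1, ZIP4, ZIP5, ZIP6, ZIP7, ZIP3, ZIP9 and ZIP2, where ranges met between neighbours from ZIP4 to ZIP7 and from ZIP3 to ZIP2. IRT3 took 10.8% of the summed RPKM of the 10 genes in Fe-deficient rosettes and 25.5% in control rosettes. In Fe-deficient roots ZIP3 and IRT3 led with overlapping ranges, followed by ZIP6, ZIP11, ZIP1, ZIP4, ZIP9, ZIP5, ZIP2 and ZIP7, where ranges met between neighbours from ZIP11 to ZIP4 and between ZIP9 and ZIP5. In control roots the order was ZIP3, IRT3, ZIP2, ZIP4, ZIP6, ZIP1, ZIP5, ZIP11, ZIP9 and ZIP7, and the ranges of ZIP6, ZIP1, ZIP5 and ZIP11 met between neighbours.

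Summed over the 10 genes, RPKM was 52.2, 47.7 and 48.2 in Fe-deficient rosettes, against 62.6, 67.7 and 63.1 in control rosettes. It was 82.6, 83.2 and 80.1 in Fe-deficient roots, against 135, 140.4 and 138 in control roots. In both organs each Fe-deficient library had a lower sum than each control library. In roots ZIP3 and IRT3 made up 27.5% and 25.8% of the sum in Fe-deficient libraries and 33.4% and 27.9% in control libraries, so these sums mostly follow them.

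**Figure D3:**
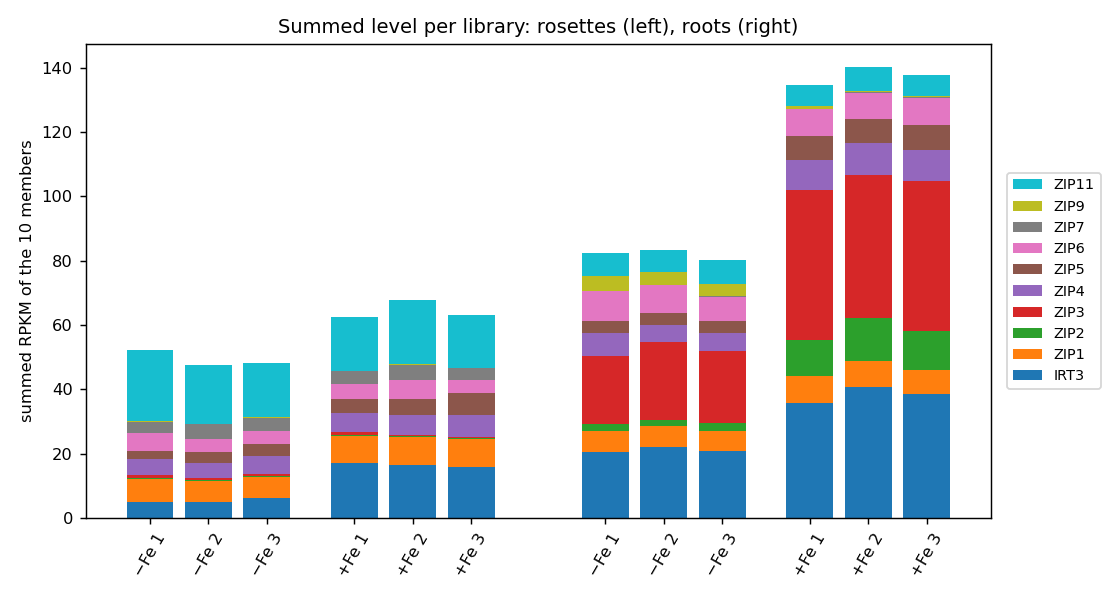
Summed RPKM of the 10 genes in each library (stacked bars from 0, coloured by gene), with rosettes left and roots right and Fe-deficient (−Fe) left of control (+Fe). Roots sum to 80.1 to 83.2 RPKM under iron deficiency and 135 to 140.4 RPKM in controls, and the tables of the 2 organs were normalised separately.

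The other 5 genes of the family give the setting for these changes. IRT1, IRT2 and ZIP8 were tested in roots, and all 3 rose, while 3.52% of all genes tested there were called higher. IRT1 had 835.62, 890.27 and 890.27 RPKM in Fe-deficient roots, against 15.3, 18.4 and 18.3 RPKM in control roots. ZIP8, which the RefSeq annotation lists as a transcribed pseudogene, had 16.10, 14.89 and 13.57 RPKM in Fe-deficient roots, against 0.24, 0.06 and 0.06 RPKM in control roots, and a log2 fold change of 4.64 (SE 0.157, limma adjusted p 1.04e-05). With control values under the added 0.5 RPKM, the size for ZIP8 depends on it, at 6.18 with 0.1 RPKM added and 3.82 with 1 RPKM. ZIP8 reached the mean of 1 RPKM needed for a test only through its Fe-deficient libraries. IRT2, an intracellular relative of IRT1, averaged 46.6 ± 5.21 RPKM in Fe-deficient roots and 2.40 ± 1.32 RPKM in control roots (SD, n = 3 each). In rosettes only IRT1 was tested, at 4.47 to 8.31 RPKM in Fe-deficient libraries and 0.03 to 0.16 RPKM in control libraries, and it was called higher (log2 fold change 3.48, limma adjusted p 0.000958). That size too depends on the added constant, at 5.04 with 0.1 RPKM added and 2.70 with 1 RPKM. In rosettes IRT1 likewise reached the test only through its Fe-deficient libraries. A gene this low in controls could be tested only if it rose. ZIP10 and ZIP12, which carry the same promoter core as IRT3 and ZIP4, were listed at 0.05 RPKM in all 6 root libraries. In rosettes ZIP10 was listed at 0.04 RPKM throughout and ZIP12 at up to 0.31 RPKM, and neither was tested.

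A list of 17 zinc homeostasis genes outside the family, chosen with earlier results of these data known, was examined in the same fits. In roots 15 were tested, of which 8 rose, none fell and 7 were not called, with a median log2 fold change of 0.45. Over all genes tested in roots, 3.52% were called higher and 2.35% lower. MTP3, which loads zinc into root vacuoles, averaged 109.6 ± 6.66 RPKM in Fe-deficient roots and 6.21 ± 0.752 RPKM in control roots (SD, n = 3 each), a log2 fold change of 4.04 (SE 0.0946, limma adjusted p 2.09e-06). Transcripts of HMA3 averaged 21.1 ± 2.39 and 1.35 ± 0.488 RPKM in the same order (SD, n = 3 each). ZIF1, a vacuolar carrier tied to nicotianamine, rose by 1.52 in log2 and the nicotianamine synthase genes NAS1 and NAS4 by 2.14 and 2.38 (limma adjusted p 3.97e-05, 1.82e-05 and 7.74e-06). PCR2, linked to zinc efflux, averaged 239 ± 18.0 RPKM in Fe-deficient roots and 164 ± 11.5 RPKM in control roots (SD, n = 3 each), and was called higher (limma adjusted p 0.00953). The call of PCR2 was lost in 3 of 15 alternatives, without control replicate 2 (limma adjusted p 0.0597), without a filter (0.0602) and in one fit of all 12 libraries (0.229). NAS2 had 90.9 ± 9.13 RPKM in Fe-deficient roots and 66.2 ± 2.63 RPKM in control roots (SD, n = 3 each, limma adjusted p 0.0249). The call of NAS2 was lost in 10 of 15 alternatives (limma adjusted p up to 0.140): on leaving out Fe-deficient replicate 1 or 2 or any control library (0.0564 to 0.108), with a filter at 0.5 RPKM (0.0548) or none (0.103), without the trend (0.0518), with a replicate block (0.0627) and in one fit of all 12 libraries (0.140). The xylem loading pumps HMA2 and HMA4 and the vacuolar MTP1 were not called.

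Among the bZIP regulators, bZIP19 was called in roots and none of them in rosettes. bZIP19 had 66.02, 65.55 and 68.59 RPKM in Fe-deficient roots, against 44.55, 48.01 and 41.30 RPKM in control roots, so that each Fe-deficient library exceeded every control (log2 fold change 0.58, SE 0.0668, limma adjusted p 0.00384). In rosettes it averaged 25.1 ± 0.490 RPKM in Fe-deficient and 24.7 ± 0.893 RPKM in control libraries (SD, n = 3 each). bZIP23 averaged 6.08 ± 1.40 RPKM in Fe-deficient roots and 6.62 ± 0.463 RPKM in control roots (SD, n = 3 each) and was not called (limma adjusted p 0.699). Of 12 listed zinc genes tested in rosettes, NAS4 and ZIF1 rose, NAS3 fell and 9 were not called. Over all genes tested in rosettes, 0.679% were called higher and 1.28% lower. NAS3, whose product makes nicotianamine in leaves, had 2.59, 3.97 and 3.69 RPKM in Fe-deficient rosettes, against 17.11, 18.88 and 13.52 RPKM in control rosettes.

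The genes described as targets of bZIP19 and bZIP23 did not move one way in roots. Of 10 such genes, 8 were tested there: ZIP3, ZIP4, ZIP5 and IRT3 fell, ZIP9, NAS2 and NAS4 rose, and ZIP1 was not called, with the calls of ZIP4 and NAS2 lost under the alternatives given above. ZIP9 reached the test only through its Fe-deficient libraries, so at its control level it could be tested only if it rose. In rosettes 5 were tested, of which IRT3 fell, NAS4 rose and 3 were not called. The shares over all genes tested were 3.52% higher and 2.35% lower in roots, and 0.679% higher and 1.28% lower in rosettes. This list too was chosen with earlier results of these data known. The defensin-like genes AT3G59930 and AT5G33355, known from zinc-starved plants, were not called in roots, with 109 ± 25.0 and 78.1 ± 17.8 RPKM in Fe-deficient roots, against 159 ± 7.64 and 82.8 ± 17.9 RPKM in control roots (SD, n = 3 each). AT3G59930 was called lower when Fe-deficient replicate 3 was left out (log2 fold change -0.74, limma adjusted p 0.00302, against -0.56 and 0.0808 with all libraries).

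**Figure D4:**
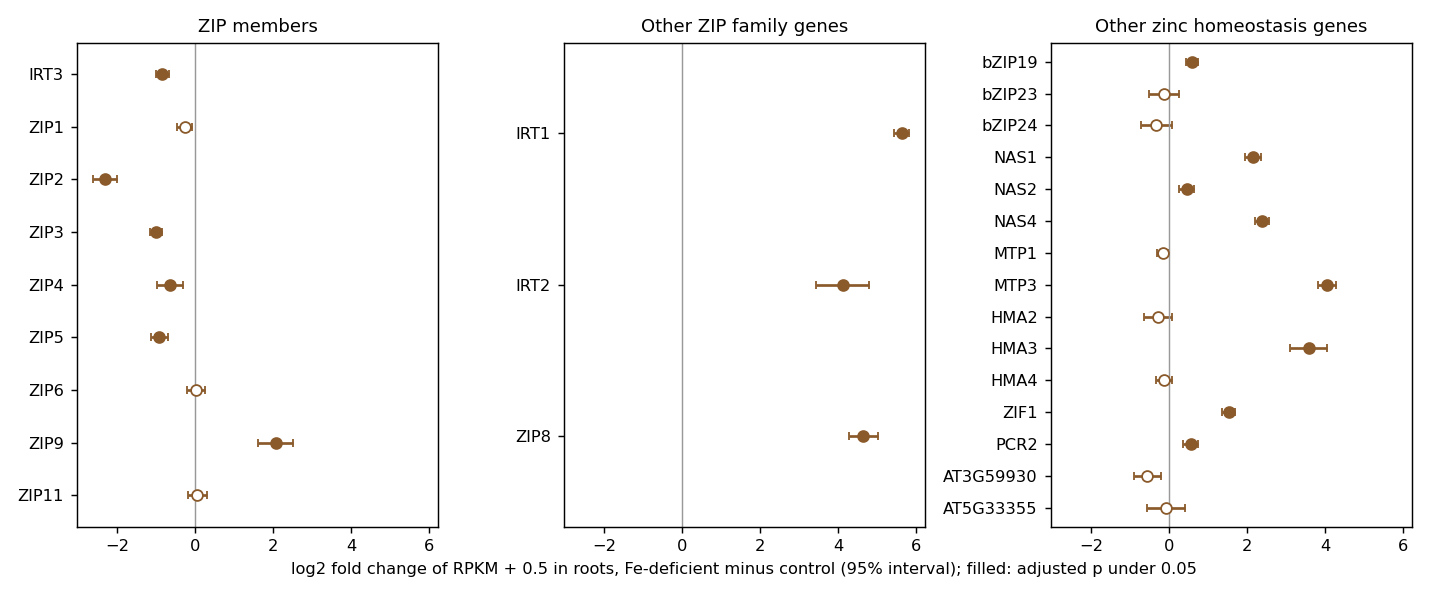
Log2 fold changes of RPKM + 0.5 in roots, Fe-deficient minus control, with 95% intervals, for the 9 tested members (left), 3 tested genes of the rest of the family (middle) and 15 tested zinc homeostasis genes (right). Filled points were called at an adjusted p under 0.05: 5 members lie left of 0 and ZIP9 right of it. All called genes of the other panels lie right of 0. ZIP8 and ZIP9 reached the test only through their Fe-deficient libraries, and the call of ZIP4 was lost in 9 of 15 alternatives.

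The genes whose pattern was most like that of ZIP9 and ZIP2 were read from Pearson correlations of log2(RPKM + 0.5) over the 12 libraries, among 17674 genes tested in both organs. The libraries fall into 4 groups and the organs were normalised apart, so the correlations mostly follow the group means and are a description. ZIP9 and ZIP2 were themselves too low in rosettes for a test. Other genes too low in an organ, such as HMA3 in rosettes, were left out of this search. For ZIP9 they were SAM1 (AT1G02500, r = 0.980), a methionine adenosyltransferase gene, MTK (AT1G49820, 0.976), of the methionine salvage cycle, and the cytokinin receptor gene HK2 (AT5G35750, 0.975). Their log2 fold changes in roots were 1.82, 1.44 and 0.68. For ZIP2 they were AT3G09200 (0.988), the protein kinase gene CIPK3 (AT2G26980, 0.980) and ZF14 (AT1G58340, 0.979), with -0.37, -0.37 and -0.83 in roots.

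The authors' deposited table gives its own p-value per gene, without saying whether it is adjusted. In rosettes, the authors' deposited table has IRT3 alone of the 10 genes at p under 0.05 (p 0.02, log2 fold change -1.63). In roots, the authors' deposited table has IRT3 (p 0.03), ZIP2 (0.01) and ZIP3 (listed as 0) under that value. The authors' deposited table lists ZIP9 in roots at p 0.1 with a log2 fold change of 2.71, ZIP5 at 0.26 with -1.01 and ZIP4 at 0.37 with -0.67. These fold changes carry no added constant, so that of ZIP9 is larger than the one from log2(RPKM + 0.5).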

How the data were processed

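RNA-seq values of 12 libraries were read from 2 tables, a table per organ, and each column was matched to a sample by its name. The deposited values were made by the authors and are read here as RPKM, although the column headers do not name the unit. Multiplied by RefSeq transcript length, the sums lie between 1128597 and 1131654 for rosette libraries and between 1125582 and 1127821 for root libraries. Many of the highest values are identical between libraries, so the distributions look equalised within a table. Such equalising removes shifts common to most genes. Per the submitters' processing notes, bcl2fastq 1.8.4, Trimmomatic 0.35, Bowtie2 2.0.6, edgeR 3.12.1, limma 3.26.9 and build TAIR10 were used, with no role given. The deposited tables also hold the authors' p-value and log2 fold change. Sequencing depth is not given: in rosettes 85.8% of 337 low values lay within 0.25 of 3, 5 or 7 times the value of a gene without reads, but in roots 16.3% of 369, so reads were not recovered and no counting interval is given.

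From these, each organ's genes averaging 1 RPKM or more in its 6 libraries were compared by limma 3.58.1 in R 4.3.3 on log2(RPKM + 0.5) (lmFit, eBayes with a trend, two-sided). P-values were adjusted by Benjamini-Hochberg across every gene tested. The comparison of organs used the fold change in rosettes minus that in roots, with Satterthwaite degrees of freedom. The script was tested on simulated data. Pairwise identity used global alignment (Biopython 1.88, BLOSUM62), and shared stretches used BLAST 2.17.0. The reference names 32835 of the 33607 loci, all 10 genes among them, and 4 transgene rows were left out. All 10 genes are named. For the most positive and the most negative call in roots, the 3 most correlated genes among those tested in both organs are named. Protein sequences are not shown here, and the amino acid alignments are summarised as identities. The genes, lists and tests were chosen with earlier results of these data known. Alternatives covered the pseudocount, the filter, centring, the trend, library weights, a joint fit, a replicate block and leaving out each library.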

Additional observations from a re-analysis of the deposited data

Results flagged for a closer look

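The iron response of IRT3 differed between the organs: rosettes minus roots gave -0.70 on the log2 scale (SE 0.116, adjusted p 0.00512 from the 2 limma fits), with lower values in all 3 Fe-deficient libraries of each organ. It was called under all 21 alternatives, with adjusted p of 0.00102 to 0.0353. What sets the size of the response in each organ was not tested.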

How the results depend on the processing

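Each result in an organ was recomputed under 15 alternatives and each difference between organs under 21. IRT3 in both organs, and ZIP2, ZIP3, ZIP5 and ZIP9 in roots, kept direction and call in all 15, with log2 fold changes of -1.63 to -1.47 for IRT3 in rosettes, -0.89 to -0.80 for IRT3 in roots, -2.51 to -2.11 for ZIP2, -1.06 to -0.96 for ZIP3, -0.99 to -0.85 for ZIP5 and 1.67 to 2.58 for ZIP9. The call of ZIP4 in roots was lost in 9 of 15 (adjusted p 0.00926 to 0.163 over all). With that loss, and with ZIP1 called in one fit of all 12 libraries, 5 to 7 members were called in roots. In rosettes 2 members were called with array weights (ZIP1 at 0.0485) and 3 in one fit of all 12 libraries (ZIP1 at 0.0268 and ZIP5 at 0.0343), where ZIP1 was also called in roots (0.0378). Leaving out a library gave 1 member called in rosettes throughout, 5 or 6 in roots and 1 between organs. Without a filter, 3 members differed between organs, ZIP2 by 2.56 and ZIP9 by -2.18 beside IRT3, but the rosette levels of ZIP2 and ZIP9 are under 0.5 RPKM. Signs turned, with no call, on leaving out a library: ZIP6 ranged over -0.17 to 0.10 in rosettes, -0.04 to 0.09 in roots and -0.19 to 0.08 between organs, ZIP11 over -0.01 to 0.19 in rosettes and -0.06 to 0.14 between organs, and ZIP7 over -0.10 to 0.07 in rosettes, with 0.02 under array weights. Among the zinc genes, the same held in roots for AT5G33355 (-0.27 to 0.06) and bZIP23 (-0.29 to 0.02), and in rosettes for bZIP24 (-0.01 to 0.12), MTP1 (-0.04 to 0.04) and PCR2 (-0.11 to 0.45). Deviations of same-numbered libraries correlated at -0.160 to 0.247 in rosettes and -0.003 to 0.103 in roots. Those of different-numbered libraries correlated at -0.309 to 0.244 in rosettes and -0.087 to 0.084 in roots. No pairing by replicate number was evident, but so few pairs cannot exclude it. With the replicate number as a block, 1 member was called in rosettes, 5 in roots (ZIP4 at 0.0914) and 1 between organs, and 188 of all genes in rosettes, against 372. Over all alternatives, the calls among all genes were 167 to 562 in rosettes, 523 to 1640 in roots and 441 to 787 between organs. The causes of these moves were not tested.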
